A study of Mus musculus with 2 samples.

Results

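Immediate-early response genes were examined in single cortical myeloid cells of a mouse amyloid model. The group comprised 10 genes chosen by symbol (Fos, Jun, Junb, Jund, Egr1, Atf3, Ier2, Btg2, Dusp1 and Klf2) of the 31053 genes measured, and all 10 were matched. The mice were male 5xFAD hemizygous animals on a C57BL/6J background, a line that carries mutant human amyloid precursor protein and presenilin transgenes in neurons, and their labelled age was 5.5 months. The photoconversion group was given an intracisternal dose of 5 uL of the photosensitiser Visudyne at 4 months of age, and 5 transcranial light steps at 689 nm followed, a procedure that ablates meningeal lymphatic vessels. The control group received the same volume of Visudyne without light. Both groups therefore carried the transgenes and the photosensitiser, both were treated again after 3 weeks, and cortex was taken 3 weeks after that. Singlets negative for SYTOX and Ly6G and positive for CD45 and CD11b were sorted, the cells of 3 mice were pooled for each group, and each pool gave 1 droplet library. Neither group was replicated, so what is compared is a pair of libraries, and every 95% interval covers counting error only.

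Immediate-early genes are transcribed within minutes of a stimulus, from promoters already open, without new protein synthesis. Fos and Jun proteins pair into the AP-1 transcription factor, Egr1 is a zinc-finger factor of the same early wave, and phosphatases such as Dusp1 shut down the kinases that started it. In brain tissue these genes are also known to respond to enzymatic or warm dissociation of the cells.

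Barcodes needed 200 or more detected genes and no more than 10% mitochondrial UMIs (unique molecular identifiers, which count transcripts). This kept 317 photoconversion and 555 control cells of 2000 barcodes each, with a median of 3410 UMIs in photoconversion and 2670 in control cells. No kept barcode sequence was shared by the libraries. All 8 microglia markers were detected in both libraries, at 25940 UMIs per 1000000 (CPM) in photoconversion and 28846 in control cells. Monocyte markers summed to 16.0 CPM in photoconversion and 75.9 CPM in control cells, with 3 of 4 and 4 of 4 markers detected, border macrophage markers to 6.61 and 33.0 CPM, with 2 of 5 and 4 of 5 detected, and mural markers to 124 and 138 CPM, with 3 of 4 detected in each. Some kept cells had at least 5 UMIs of vascular markers (7 photoconversion and 8 control cells) or of monocyte or border macrophage markers (1 and 7 cells), a definition chosen after seeing the data, and results are given with and without them where they matter.

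The start of each gene is shown for the members on which the results below turn and that hold a TGACG core, the core of the cAMP response element, whose full form is TGACGTCA and is bound by CREB and ATF family factors. The 200 bases upstream of the start annotated by RefSeq on GRCm38.p6 are given 5′ to 3′ on the gene's own strand. TGACG on either strand and the full element are in capitals. Gene coordinates given further on are from GENCODE, whose starts can differ. For Dusp1 and Atf3 the stretch lies inside the GENCODE bounds of the gene. The stretches are chr1:134079156-134079355 (minus strand) for Btg2, chr17:26508473-26508672 (minus) for Dusp1, chr12:85473690-85473889 (plus) for Fos, chr8:84978749-84978948 (minus) for Junb and chr1:191183334-191183533 (minus) for Atf3.
Btg2: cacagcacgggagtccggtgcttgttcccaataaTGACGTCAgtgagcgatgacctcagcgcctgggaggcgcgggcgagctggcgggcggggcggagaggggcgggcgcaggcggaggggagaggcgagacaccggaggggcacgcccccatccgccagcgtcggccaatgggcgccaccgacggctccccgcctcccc
Dusp1: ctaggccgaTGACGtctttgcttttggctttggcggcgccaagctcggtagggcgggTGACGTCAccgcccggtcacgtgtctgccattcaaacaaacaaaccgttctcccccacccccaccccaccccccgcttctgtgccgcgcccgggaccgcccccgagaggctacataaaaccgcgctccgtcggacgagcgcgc
Fos: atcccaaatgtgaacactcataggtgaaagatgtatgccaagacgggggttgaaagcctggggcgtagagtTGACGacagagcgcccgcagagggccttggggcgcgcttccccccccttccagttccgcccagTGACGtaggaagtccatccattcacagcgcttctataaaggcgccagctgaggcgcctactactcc
Junb: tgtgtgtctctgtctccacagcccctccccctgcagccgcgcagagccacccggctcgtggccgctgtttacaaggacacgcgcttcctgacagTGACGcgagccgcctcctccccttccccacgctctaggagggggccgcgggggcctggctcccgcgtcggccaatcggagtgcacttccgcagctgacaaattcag
Atf3: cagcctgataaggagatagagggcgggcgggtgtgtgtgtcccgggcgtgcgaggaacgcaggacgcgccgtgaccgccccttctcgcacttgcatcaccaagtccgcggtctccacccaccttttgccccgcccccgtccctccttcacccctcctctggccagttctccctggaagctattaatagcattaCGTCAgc
The full element lay at -166 in Btg2 and at -143 in Dusp1, counted from the start, and it was present within 250 upstream bases in 2 of 8 members with an entry, against 1.55% of 32851 promoters. The core, which the full element contains, was present in 6 of 8, against 17.8% of promoters. Fos held it at -129 and -66, Junb at -106 and Atf3 on the opposite strand at -7, and in Klf2 it lay at -241. A match describes these letters and not binding.

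The Jun family members of AP-1 had levels that were close in the libraries. Jund (ENSMUSG00000071076, chr8:70698949-70700616), the Jun family member usually expressed without stimulation, had 264 UMIs in photoconversion and 364 in control cells, or 145 CPM (128 to 164) in photoconversion and 150 CPM (135 to 167) in control. It was found in 40.7% of photoconversion and 32.4% of control cells, whose median depth was 3410 and 2670 UMIs. Such shares rise with depth and were not taken at equal depth. Junb (ENSMUSG00000052837, chr8:84974484-84978718), an inducible AP-1 subunit, had 84.2 CPM (71.4 to 98.7) in photoconversion and 93.3 CPM (81.5 to 106) in control cells, from 153 and 226 UMIs. Jun (ENSMUSG00000052684, chr4:95049034-95052222), the AP-1 subunit activated by JNK kinases, had 44.6 CPM (35.4 to 55.4) in photoconversion and 52.4 CPM (43.7 to 62.4) in control cells. The interval of the photoconversion over control ratio included 1 for each of these genes, with 0.968 (0.823 to 1.14) for Jund, 0.903 (0.731 to 1.11) for Junb and 0.851 (0.636 to 1.13) for Jun.

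Fos (ENSMUSG00000021250, chr12:85473890-85477273), the partner of the Jun proteins in AP-1 and the classical marker of recent stimulation, was rare. It had 0 UMIs in the 317 photoconversion cells, where the interval of the share of cells with a UMI reached 1.16%. In control it had 16 UMIs in 8 of 555 cells (6.60 CPM, 3.77 to 10.7). Set against a floor of 3 counts in the photoconversion library Fos was 4.00-fold lower there. The counting interval of the ratio allowed up to 0.346, and without marker cells, where 0 stood against 8 UMIs, up to 0.780. Of the 16 control UMIs, 13 lay in 5 cells, 5 in cells with vascular markers and 3 in cells with monocyte or border macrophage markers. Egr1 (ENSMUSG00000038418, chr18:34859823-34864984) was about as rare, with 9 UMIs in 4 photoconversion cells (4.96 CPM) and 11 UMIs in 10 control cells (4.54 CPM), and 6 of the 9 photoconversion UMIs were in a single cell. The interval of its ratio was wide, 0.400 to 2.90.

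Among the other members, Btg2 (ENSMUSG00000020423, chr1:134075170-134079120), an antiproliferative p53 target, had the most UMIs, with 65.5 CPM (54.3 to 78.4) in photoconversion and 83.4 CPM (72.3 to 95.7) in control cells. Its ratio was 0.786 (0.621 to 0.990), and without marker cells it was 0.793 with an interval (0.624 to 1.004) that included 1. Atf3 (ENSMUSG00000026628, chr1:191170296-191218039), a stress-induced transcriptional repressor, had 30.3 CPM (22.8 to 39.4) in photoconversion and 35.1 CPM (28.0 to 43.4) in control cells, a ratio of 0.863 (0.603 to 1.23). Ier2 (ENSMUSG00000053560, chr8:84661331-84662852), a nuclear protein of the early response, had 22.0 CPM (15.7 to 29.99) in photoconversion and 17.3 CPM (12.5 to 23.4) in control cells, and its ratio of 1.27 had an interval of 0.803 to 2.01. It was detected in 8.83% of photoconversion cells (5.95 to 12.5%) and 4.86% of control cells (3.23 to 7.0%). These shares were not taken at equal depth.

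Klf2 and Dusp1 had the lowest ratios of the members with at least 20 UMIs. Klf2 (ENSMUSG00000055148, chr8:72319033-72321656), a transcription factor induced by blood flow in endothelium and high in quiescent leukocytes, had 14.9 CPM (9.80 to 21.6) in photoconversion and 36.3 CPM (29.1 to 44.8) in control cells, a ratio of 0.409 (0.256 to 0.636). With cells weighed equally its log2 ratio was -0.02, against -1.27 as summed, so the difference was no longer past 1.5-fold. Dusp1 (ENSMUSG00000024190, chr17:26505590-26562128), which dephosphorylates MAP kinases, had 3.85 CPM (1.55 to 7.94) in photoconversion and 17.3 CPM (12.5 to 23.4) in control cells, a ratio of 0.222 (0.0843 to 0.499). These were the 2 of 9 members with at least 20 UMIs that were lower by 1.5-fold or more, and 0 were higher by that much. Over the 8823 genes with as many UMIs, 9.84% were lower and 6.18% were higher by 1.5-fold or more.

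**Figure D1:**
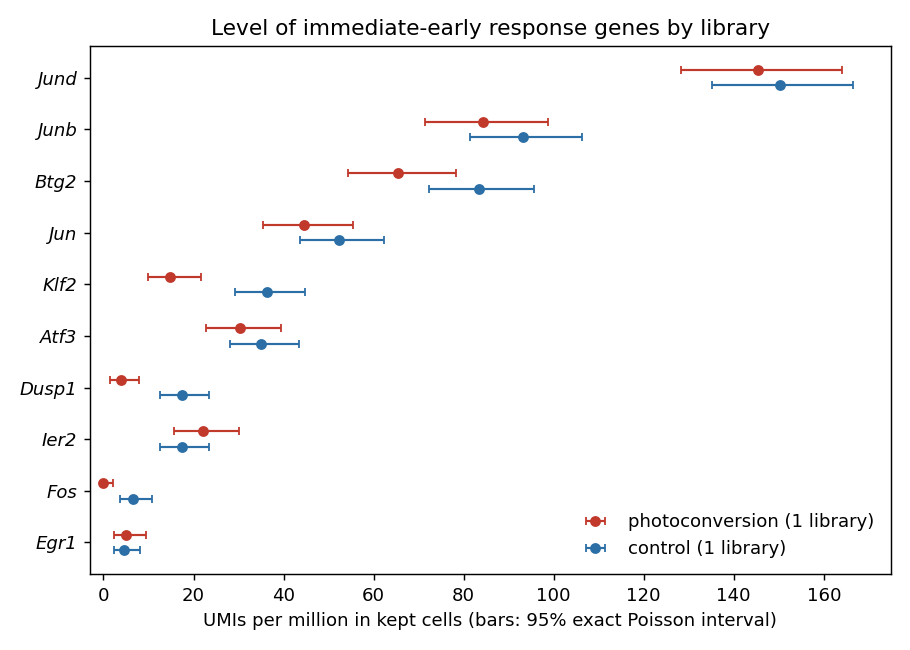
UMIs per 1000000 of each immediate-early gene over all kept cells, photoconversion above control, with 95% exact Poisson intervals. The intervals of Jund, Junb and Jun overlap widely, while Klf2 (14.9 in photoconversion, 36.3 in control), Dusp1 (3.85 and 17.3) and Fos (0 and 6.60) lie lower in the photoconversion library.

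The Klf2 UMIs, and in the control library the Dusp1 UMIs, came largely from cells with markers of other types. In the photoconversion library 26 of the 27 Klf2 UMIs lay in the 7 cells with vascular markers, and the remaining 1 lay elsewhere. In the control library 44 of 88 Klf2 UMIs lay in the 8 cells with vascular markers, 27 in the 7 cells with monocyte or border macrophage markers and 17 in all other cells. Klf2 reached 1075 CPM in photoconversion and 1460 CPM in control cells with vascular markers, against 0.563 CPM and 7.19 CPM in the cells with neither marker set. Without marker cells 1 photoconversion UMI stood against 17 control UMIs, a ratio of 0.0783 (0.00187 to 0.4997). Dusp1 in the control library had 21 UMIs in cells with vascular markers and 6 in cells with monocyte or border macrophage markers, while none of its 7 photoconversion UMIs lay in either. Without those cells 7 photoconversion UMIs stood against 15 control UMIs, and the interval of the ratio (0.621, 0.214 to 1.62) included 1. By contrast Jund, Junb, Btg2, Jun and Atf3 kept at least 91.4% of their UMIs outside marker cells in each library.

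**Figure D2:**
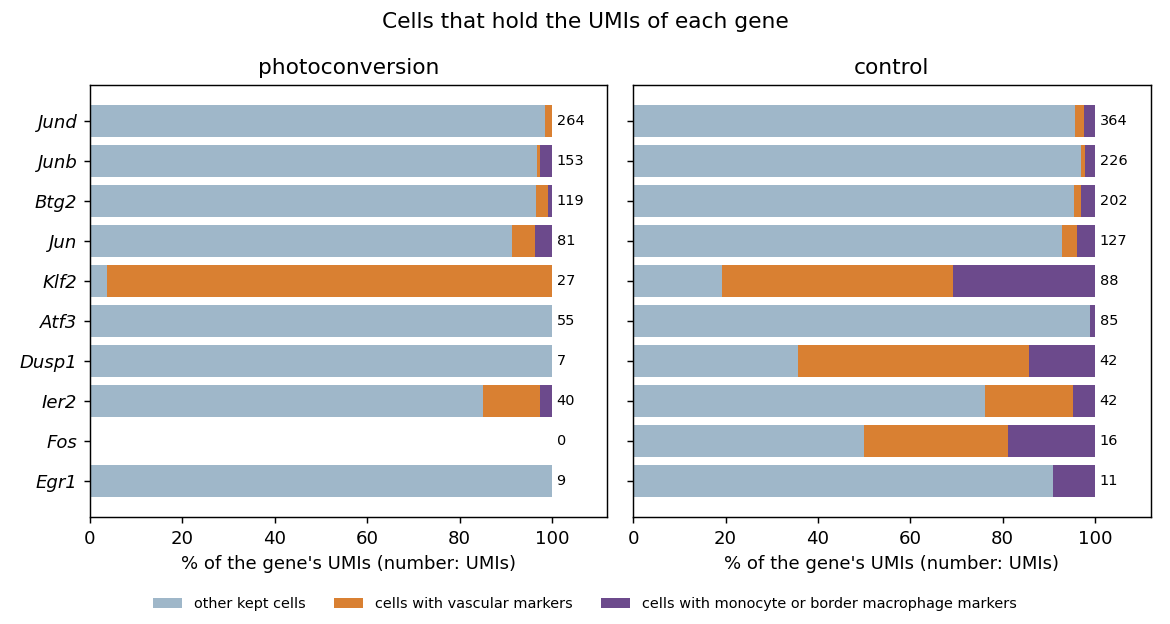
Share of each gene's UMIs held by cells with vascular markers, by cells with monocyte or border macrophage markers and by all other kept cells, photoconversion left and control right, with the number of UMIs beside each bar. Klf2 stands apart in both libraries and Dusp1 in the control library, while Atf3 and Jund come almost wholly from other cells.

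Summed over the group, the members gave 755 UMIs or 416 CPM (387 to 446) in photoconversion and 1203 UMIs or 497 CPM (469 to 525) in control cells, a ratio of 0.837 (0.763 to 0.918). Without Klf2 the ratio was 0.871 (0.792 to 0.957). Without marker cells, and with Klf2 kept, it was 0.896. Cells with vascular markers held 5.70% of the photoconversion and 7.81% of the control sum. Those with monocyte or border macrophage markers held 1.19% and 5.40%. The 4 members with most UMIs held 81.7% of the photoconversion and 76.4% of the control sum. Before thinning, at least 1 member was detected in 62.8% of photoconversion and 59.1% of control cells, and the median cell of either library held 1 member UMI. The median log2 ratio over the 9 members with at least 20 UMIs was -0.21, with 7 below 0, and over all 8823 genes it was -0.06, with 57.7% below 0. The barcodes with under 200 genes had the members at 355 CPM (258 to 476) in the photoconversion library, an interval that overlaps that of the cells. In the control library they had 347 CPM (259 to 457), below the interval of the cells. Whether these barcodes hold free RNA was not tested, nor was the part of free RNA in the cells' UMIs. A lower sum can come from fewer cells with the RNA or from less of it per cell.

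The members were then compared between microglial classes within each library. Cst7, a cystatin, is high in microglia around amyloid plaques and P2ry12, a purinergic receptor, is high in homeostatic microglia. Cells with more Cst7 than P2ry12 UMIs were called Cst7-dominant (157 photoconversion and 207 control cells) and those with more P2ry12 than Cst7 UMIs P2ry12-dominant (133 photoconversion and 290 control cells). Cst7-dominant cells were deeper, with a median of 5852 UMIs against 2739 in P2ry12-dominant photoconversion cells, and 4655 against 2207 in control. Their share of kept cells also differed, with 49.5% Cst7-dominant in photoconversion and 37.3% in control. In 58 photoconversion and 115 control kept cells the Cst7 and P2ry12 counts lay within 1 UMI of each other. These include cells of neither class, with both counts 0 (21 photoconversion and 45 control cells) or equal above 0 (6 and 13 cells). In the remainder the class rested on 1 UMI. Because the classes differed in depth, each cell was also thinned to 1000 UMIs, which left out 45 photoconversion and 116 control cells below that depth.

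At equal depth the summed members had a ratio of Cst7-dominant over P2ry12-dominant cells below 1 in both libraries. In photoconversion cells they reached 345 CPM (255 to 456) in Cst7-dominant and 538 CPM (414 to 687) in P2ry12-dominant cells, a ratio of 0.642 (0.433 to 0.946). In control cells they reached 339 CPM (260 to 434) in Cst7-dominant and 573 CPM (480 to 679) in P2ry12-dominant cells, a ratio of 0.591 (0.430 to 0.805). Over 10 thinning draws the ratio ran from 0.522 to 0.838 in photoconversion and from 0.591 to 0.783 in control cells, and its interval included 1 in 2 photoconversion draws and 1 control draw. Without the 10 richest cells the photoconversion ratio was 0.884 (0.584 to 1.34). On all UMIs it was 0.698 (0.597 to 0.817) in photoconversion and 0.638 (0.566 to 0.720) in control cells. Set the other way, the photoconversion over control ratio of the sum was 0.931 (0.823 to 1.05) within Cst7-dominant and 0.852 (0.729 to 0.993) within P2ry12-dominant cells on all UMIs, and both intervals included 1 at equal depth (1.02, 0.686 to 1.51, and 0.938, 0.685 to 1.27).

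On all UMIs Junb and Btg2 were lower in Cst7-dominant cells of both libraries. Junb had 64.1 CPM in Cst7-dominant and 145 CPM in P2ry12-dominant photoconversion cells, a ratio of 0.441 (0.316 to 0.616), and 59.3 CPM in Cst7-dominant and 156 CPM in P2ry12-dominant control cells, a ratio of 0.380 (0.287 to 0.503). Btg2 had 42.8 CPM in Cst7-dominant and 120 CPM in P2ry12-dominant photoconversion cells, a ratio of 0.357 (0.242 to 0.527), and 53.2 CPM in Cst7-dominant and 132 CPM in P2ry12-dominant control cells, a ratio of 0.402 (0.297 to 0.543). After thinning, 5 Junb UMIs in Cst7-dominant stood against 21 in P2ry12-dominant photoconversion cells (0.200, 0.0588 to 0.544) and 12 against 29 in control, where the interval included 1 (0.525, 0.244 to 1.06), and 6 Btg2 UMIs stood against 14 in photoconversion and 8 against 37 in control. Jun was lower in Cst7-dominant photoconversion cells, with a ratio of 0.519 (0.326 to 0.835), and in control cells the interval of its ratio of 0.708 reached 1.03. Jund did not separate the classes, with 0.864 (0.658 to 1.14) in photoconversion and 0.849 (0.680 to 1.06) in control cells.

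Atf3 went the other way. It had 47 UMIs or 35.9 CPM in Cst7-dominant and 6 UMIs or 12.8 CPM in P2ry12-dominant photoconversion cells, a ratio of 2.80 (1.19 to 8.0). In control cells it had 74 UMIs or 50.4 CPM in Cst7-dominant and 9 UMIs or 10.7 CPM in P2ry12-dominant cells, a ratio of 4.71 (2.35 to 10.7). Thinning left too few Atf3 UMIs to compare, with 6 against 2 in photoconversion and 5 against 3 in control cells. Ier2 differed in direction between the libraries, with 2.86 (1.01 to 11.1) in photoconversion and 0.482 (0.232 to 0.990) in control cells. Between the libraries it was 2.24 (1.19 to 4.37) in Cst7-dominant and 0.378 (0.0936 to 1.14) in P2ry12-dominant cells, photoconversion over control. Klf2 in control cells had a ratio of 0.367 (0.213 to 0.622), but without marker cells it rested on 8 and 4 UMIs and its ratio was 1.123. Leaving those cells out moved the all-UMI ratios of Junb, Btg2 and Atf3 little, to 0.453, 0.343 and 2.74 in photoconversion and to 0.385, 0.393 and 4.62 in control cells.

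These class differences stand against a broad one over all genes. On all UMIs 3 of the 6 members with at least 20 UMIs in the classes were lower and 2 higher by 1.5-fold or more in Cst7-dominant photoconversion cells, where 34% of 6331 genes were lower and 13% higher. In control cells 4 of 8 members were lower and 1 was higher, where 35.9% of 7216 genes were lower and 10.7% higher. At equal depth 3 members had enough UMIs in each library. In photoconversion cells 2 of the 3 were lower and 0 higher, where 30.1% of 1465 genes were lower and 27.2% higher, and in control cells 2 were lower and 0 higher, where 36.1% of 2381 genes were lower and 20.5% higher. The median log2 ratio of the members on all UMIs was -0.58 in photoconversion and -0.77 in control cells, and over all genes it was -0.26 and -0.35.

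The cells with neither Cst7 nor P2ry12 UMIs numbered 21 in photoconversion, at a median depth of 604 UMIs, and 45 in control, at 652 UMIs, and their member level was 1456 CPM (951 to 2133) in photoconversion and 1509 CPM (1224 to 1841) in control cells. A single photoconversion cell with vascular markers held 14 of the 26 member UMIs. Without marker cells the level was 672 CPM (307 to 1276) in photoconversion, from 9 UMIs, and 1039 CPM (724 to 1445) in control, from 35 UMIs. Of these 35 UMIs, 16 lay in a single control cell of 4143 UMIs with neither marker set, so the control level rests in large part on that cell. The class held 3 of the 7 photoconversion and 4 of the 8 control cells with vascular markers, and 4 of the 7 control cells with monocyte or border macrophage markers. Klf2 made up 13 of its 26 member UMIs in photoconversion and 24 of 97 in control, and Dusp1 0 of 26 in photoconversion and 17 of 97 in control.

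Whether the members rose together in the same cells was asked at 1000 UMIs per cell, where a cell held 0.441 member UMIs on average in photoconversion and 0.519 in control cells. The variance of the member sum was divided by the sum of the members' own variances, a ratio that is 1 when genes vary independently. It was 1.68 in 272 photoconversion and 1.47 in 439 control cells. Over 10 thinning draws it ran from 1.54 to 1.72 in photoconversion and from 1.16 to 1.47 in control, with medians of 1.64 and 1.34, so the control value stood at the top of its range. In photoconversion the excess rested on 1 P2ry12-dominant cell of 1036 UMIs with 13 member UMIs, of which 6 were Junb, 3 Jun, 2 Jund and 2 Btg2. Without it the ratio was 1.11. Within classes the ratio was 1.22 in Cst7-dominant photoconversion cells, 2.02 in P2ry12-dominant photoconversion cells, which hold that cell, 1.22 in Cst7-dominant control cells and 1.22 in P2ry12-dominant control cells.

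Counting genes instead of UMIs, 2 of 272 photoconversion cells (0.735%, 0.0892 to 2.63%) and 12 of 439 control cells (2.73%, 1.42 to 4.73%) had 3 or more members detected. Multiplying the members' own shares gave 0.910 photoconversion and 2.70 control cells. The control share ran from 1.37 to 2.73% over the thinning draws and was above the product in 10 of 10 draws, as it was in photoconversion cells. The draws thin the same cells, so they show the effect of thinning only and are not replicates. In photoconversion the interval of the share held the product of 0.335%, and in control it lay above the product of 0.615%. Without the richest cell the share was 0.369% in photoconversion and 2.51% in control cells. Without marker cells the control share had a median of 1.29% over draws against a product of 0.398%.

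**Figure D3:**
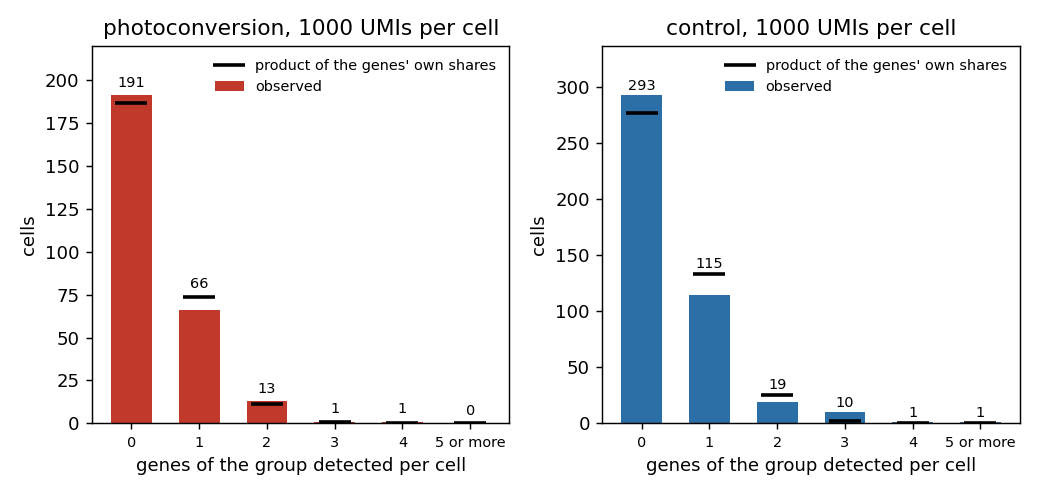
Number of cells with 0 to 5 or more immediate-early genes detected at 1000 UMIs per cell (bars, with the count above), photoconversion left and control right, and the number given by multiplying the genes' own shares (black lines). Most cells have none, 191 of 272 in photoconversion and 293 of 439 in control, and the control library has 10 cells with 3 members where the product gives 2.55.

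Joint variation was also computed at 4000 UMIs per cell without marker cells, an alternative chosen after seeing the data. In 137 photoconversion cells the variance ratio had a median of 1.21 over 10 draws (1.0 to 1.35), and 1.12 (0.892 to 1.28) after the richest cell was also left out. In 200 control cells it had a median of 1.71 (1.59 to 1.84), and 1.48 (1.38 to 1.65) without its richest cell. At this depth 3 or more members were detected in a median of 10.9% of photoconversion cells, against a product of 8.68%, and the share exceeded the product in 6 of 10 draws. In control cells the share was 16.0% against 12.3% and exceeded it in 10 of 10 draws. The difference between the libraries in this measure has no replicate check and was not tested. These values pool the classes, and none within a class is given at this depth.

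Pairwise correlations were low. At 1000 UMIs the median Pearson r over member pairs was -0.0059 in photoconversion (28 pairs with a value) and 0.044 in control cells (45 pairs), beside medians of -0.0038 and -0.0018 over all pairs of genes found in at least 5% of cells. Over 10 thinning draws the member median ran from -0.012 to 0.103 in photoconversion and from -0.0096 to 0.049 in control. These ranges overlap, so the order of the libraries depended on the draw. Only 3 member pairs met that detection, and 2 of them reached an r of 0.1 in photoconversion, where 8.51% of all pairs did, and 0 in control, where 5.09% did. At 4000 UMIs without marker cells 6 members gave 15 pairs, with a median r of 0.070 in photoconversion and 0.115 in control, and 13 of 15 were above 0 in each. An r of 0.1 was reached by 6 of 15 pairs in photoconversion, where 14.3% of all pairs did, and by 8 of 15 in control, where 10.7% did. The highest in control was Junb with Btg2, at 0.278, and Junb with Jun was the highest in photoconversion, at 0.242. Atf3 had an r between -0.053 and 0.140 with the other members, and Atf3 with Ier2, at 0.140, was the second highest pair in photoconversion. The cells of each value share a library and a depth. Each r pools the classes, and no r within a class is given. Junb and Btg2 also differed between the classes, and the part of that difference in r was not tested.

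The cells richest in member UMIs were of several kinds. The 10 richest held 21.1% of photoconversion and 16.0% of control member UMIs, and 7.61% and 4.34% of all UMIs. In photoconversion 7 of the 10 were Cst7-dominant and 2 had vascular markers. The ranking used UMIs before thinning, which favours deep cells, and Cst7-dominant cells were the deeper class. In control 4 were Cst7-dominant, 3 had vascular markers and 1 had monocyte or border macrophage markers. The richest control cell had 33 member UMIs, 15 of Klf2 and 8 of Dusp1, with 116 endothelial or mural marker UMIs against 13 of microglia markers. Other rich cells carried microglia markers, such as a P2ry12-dominant control cell with 6 UMIs each of Jun, Junb and Btg2 and 247 microglia marker UMIs. A cell with all 10 members was not found, and the most in any cell was 6 in photoconversion and 8 in control.

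**Figure D4:**
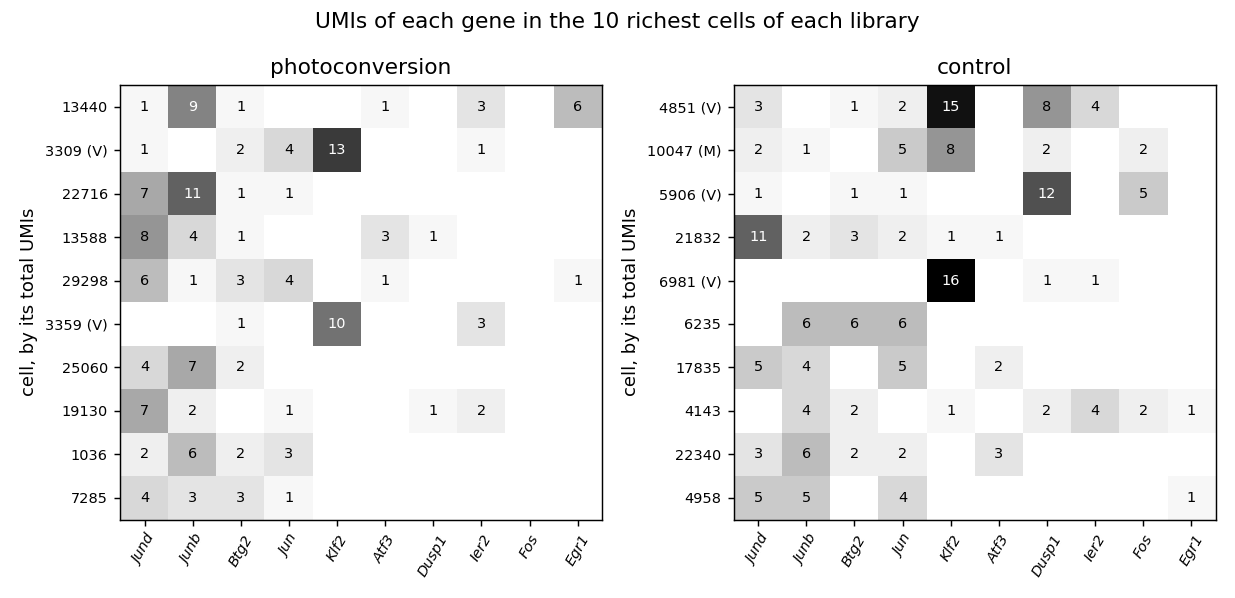
UMIs of each immediate-early gene in the 10 cells of each library with most member UMIs, before thinning, photoconversion left and control right, a row per cell labelled by its total UMIs (V marks vascular and M monocyte or border macrophage markers). Klf2 or Dusp1 counts of 8 or more lie only in cells marked V or M among these 20 cells, and Junb, Jund, Jun and Btg2 hold most member UMIs in each of the unmarked cells except the control cell of 4143 UMIs.

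Outside the group, the order of the genes most like the member sum at equal depth changed when the richest cell of each library was left out. Of 1688 genes compared, Zfp36, which destabilises cytokine mRNAs and is itself an immediate-early gene, had the highest mean r, with 0.256 in photoconversion and 0.170 in control cells. Without those cells its photoconversion value was 0.0921, its mean r fell to the seventh of the 12 genes named here, and Malat1 had the highest of them. Over all cells Ier5 followed, with 0.230 in photoconversion and 0.133 in control cells, then Malat1, a nuclear long non-coding RNA, with 0.188 and 0.170, and Zfp36l2 with 0.184 and 0.117. Zfand5, Actg1, Tmem109, Adora3, P4hb, Cebpb, Lamtor5 and Lpcat3 completed the 12, with mean r between 0.130 and 0.148. The 90th percentile over all genes compared was 0.0974 in photoconversion and 0.0811 in control cells.

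In a list of 32 other immediate-early genes the sum was also lower in Cst7-dominant cells, while single genes went both ways. Their sum was 1197 CPM in photoconversion and 1310 CPM in control cells, a ratio of 0.914 (0.865 to 0.965). Of 20 with at least 20 UMIs, 0 were higher and 2 were lower by 1.5-fold or more, with a median log2 ratio of -0.16, and that share lower is close to the 9.84% over all genes. The 2 were the nuclear receptor Nr4a1, with 1 UMI in photoconversion and 21 in control cells, and the factor Klf4, which was named after its values were seen, with 14 and 35. In control Nr4a1 had 8.67 CPM over all kept cells, but 4.09 CPM in Cst7-dominant and 5.95 CPM in P2ry12-dominant cells. Part of its UMIs therefore lay in cells of neither class, and values without marker cells are not given for this list. The sum of the list at equal depth was lower in Cst7-dominant than in P2ry12-dominant cells. Its ratio was 0.658 (0.530 to 0.815) in photoconversion and 0.596 (0.498 to 0.713) in control cells, and its r with the member sum was 0.211 and 0.212. This r is over all thinned cells, and no value without the richest cell is given for the list. On all UMIs 5 of 13 genes with at least 20 UMIs in the classes were lower by 1.5-fold or more in Cst7-dominant photoconversion cells and 1 was higher, and 7 of 16 were lower and 4 higher in control, beside the 34% and 13% of all genes in photoconversion and the 35.9% and 10.7% in control given above. The factor Maff was the one higher in photoconversion, with no UMI in P2ry12-dominant cells, and with Egr2, Ier3 and Klf4 made up the 4 in control, names taken after their values were seen. Rhob, a small GTPase with the most UMIs of the list, had 288 CPM in photoconversion and 340 CPM in control cells, Sgk1, a kinase induced by glucocorticoids, 180 and 176 CPM, and Cyr61, a matrix protein, 0 and 4 UMIs.

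Genes reported as activated in microglia by dissociation had a sum that went the other way between the classes, and most of that sum was a pair of chemokines. The sum of 12 was 1716 CPM in photoconversion and 1935 CPM in control cells, and at equal depth it was higher in Cst7-dominant cells, by a ratio of 2.81 (2.19 to 3.63) in photoconversion and 2.31 (1.95 to 2.75) in control cells. Ccl3 and Ccl4 made up 84.7% of it in photoconversion and 81.8% in control, with Ccl3 at 872 CPM in photoconversion and 852 CPM in control cells, and Ccl4 at 582 and 732 CPM. Without these chemokines, which was tried once the values were known, the class ratio at equal depth was 0.860 (0.539 to 1.37) in photoconversion and 0.717 (0.507 to 1.01) in control cells. Txnip, an oxidative stress regulator, was lower in Cst7-dominant cells, with a ratio of 0.331 (0.223 to 0.492) in photoconversion and 0.165 (0.119 to 0.224) in control on all UMIs. More genes of the list were higher in that class by 1.5-fold or more. In photoconversion 4 of 6 with enough UMIs were higher (Ccl3, Ccl4, Hist1h2bc and Rgs1) and 1 lower, where 13% of all genes were higher and 34% lower. In control 5 of 9 were higher (Ccl3, Ccl4, Hist1h1c, Hist1h2bc and Hist2h2aa1) and 2 lower, where 10.7% were higher and 35.9% lower. These names were taken after their values were seen. The r of the whole list's sum with the member sum was 0.0852 in photoconversion and 0.0299 in control cells. Between the libraries, of 9 with at least 20 UMIs 3 were lower by 1.5-fold or more in photoconversion and 0 higher. Over all genes 9.84% were lower and 6.18% higher. The 3 were Txnip (0.581), the cytokine Il1b (0.328, from 14 and 57 UMIs) and the histone gene Hist2h2aa1 (0.616, named after its values were seen). Of 10 heat shock genes 8 had at least 20 UMIs, of which 0 were higher and 1, Dnajb1, was lower, near the 9.84% over all genes, and the sum had a ratio of 0.838 (0.803 to 0.874). Hspa8 and Hsp90ab1, constitutive chaperones, had the most UMIs, with 540 CPM in photoconversion and 797 CPM in control for Hspa8 and 527 and 553 CPM for Hsp90ab1. Inducible Hspa1a and Hspa1b had 0 UMIs in photoconversion cells, against 11 and 5 in control cells.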

How the data were processed

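Droplet single-cell libraries of sorted cortical cells were analysed, 1 per group. The authors deposited unnormalised UMI counts by gene and barcode. The tools were bcl2fastq and Cell Ranger, with mm10, per the submitters' processing notes, and the version of Cell Ranger was 3.0.2 per the file headers. The photoconversion library held 2038693 UMIs and the control library 2672902.

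Members were matched by symbol. Gene coordinates came from GENCODE on GRCm38, the assembly of mm10, and promoter stretches from RefSeq. UMIs of kept cells were summed and scaled to CPM. Intervals at 95% were exact Poisson for sums, conditional binomial for ratios and Clopper-Pearson for shares. Log2 ratios had 0.5 added to each sum, genes needed at least 20 UMIs, and called means 1.5-fold. Cells were thinned without replacement with seed 1. With 1 library per group no test was made, and doublets were not removed. The planned endothelial marker list held Bsg, which microglia express, so cells were defined as vascular without it. Steps were tested on simulated data. Python 3.11.15, numpy 2.4.6, scipy 1.17.1 and edgeR 4.0.16 (TMM, as an alternative) were used. Alternatives covered filters, scaling, depth, thinning draw and cells left out. Named genes were the members, up to 4 genes of each other list (2 by UMIs and 2 by mean r with the member sum) and the 12 genes most like the member sum. Members and lists were chosen with earlier results of these data known.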

Additional observations from a re-analysis of the deposited data

Results flagged for a closer look

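Ier2 differed in direction between the libraries under the same contrast. Its ratio of Cst7-dominant over P2ry12-dominant cells on all UMIs was 2.86 (1.01 to 11.1) in photoconversion, from 32 and 4 UMIs, and 0.482 (0.232 to 0.990) in control, from 16 and 19 UMIs, and the intervals lay on opposite sides of 1. Without marker cells the ratio was 3.49 (1.09 to 17.9) in photoconversion, from 30 and 3 UMIs, and 0.518 (0.216 to 1.23) in control, from 12 and 13 UMIs. At equal depth 2 and 1 UMIs in photoconversion and 1 and 4 UMIs in control remained. The difference between the libraries was not tested.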

How the results depend on the processing

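No paired analysis was possible because each group had 1 library, numbered in accession order only, and no replicate could be left out. The photoconversion over control ratio of the member sum stayed below 1 in 13 of 13 alternatives (0.639 to 0.931). It moved most without cells with 2 or more endothelial or mural UMIs (0.639), with cells weighed equally (0.924) and in Cst7-dominant cells only (0.931). The median member log2 ratio stayed below 0 in 15 of 15 (-0.32 to -0.12). The class ratio stayed below 1 in 20 of 20 alternatives in each library, and in photoconversion it was 0.263 without those cells with endothelial or mural UMIs, and 0.376 at 500 UMIs. That set holds 203 of 317 photoconversion and 312 of 555 control cells, and 13 and 17 when Bsg is left out of the markers. It rests mostly on Bsg, which microglia express. The photoconversion interval included 1 without the 10 richest cells (0.884, up to 1.34), with another draw (0.838, up to 1.25), at 2000 UMIs (0.747, up to 1.01) and with classes 2 UMIs apart (0.718, up to 1.08). The control interval included 1 without the cells with endothelial or mural UMIs (0.666, up to 1.18). The Klf2 log2 ratio of -1.27 moved in 5 of 13 alternatives, to between -3.87 (P2ry12-dominant cells) and -0.02 (cells weighed equally), and was -0.82 at 1000 UMIs.

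Measures of joint variation depended more on the processing. The cells with endothelial or mural UMIs are again the set that rests mostly on Bsg. The photoconversion variance ratio was 1.23 with at most 5% mitochondrial UMIs, 2.21 without cells with endothelial or mural UMIs, 1.73 without cells above 20000 UMIs, 1.30 at 2000 UMIs, 1.09 at 4000 UMIs, 1.08 and 1.35 at 2000 and 4000 UMIs without marker cells, 1.95 unthinned, 1.11 without the 1 richest cell and 0.973 without the 10 richest, which is below 1. The control ratio was 1.197 without the 10 richest cells, 1.23 without marker cells, 1.26 with at most 5% mitochondrial UMIs, 1.27 at 500 UMIs, 1.48 with at least 400 genes, 1.498 without cells with endothelial or mural UMIs, 1.58 at 2000 UMIs, 1.98 at 4000 UMIs, 1.78 at 4000 UMIs without marker cells and 2.14 unthinned. The photoconversion median pair r was -0.0247 with at most 5% mitochondrial UMIs, -0.0257 without the 10 richest cells, 0.218 without cells with endothelial or mural UMIs, -0.0182 at 2000 UMIs without marker cells and 0.140 unthinned. In control it was 0.0567 with up to 20% mitochondrial UMIs, -0.0142 without cells with endothelial or mural UMIs, 0.0660 at 2000 UMIs, 0.105 at 4000 UMIs, -0.0137 and 0.115 at those depths without marker cells, 0.134 unthinned and 0.0493 without Jund. The photoconversion share of cells with 3 or more members was 0% both with at most 5% mitochondrial UMIs and without the 10 richest cells, 3.48% at 2000 UMIs, 12.1% at 4000 UMIs, 13.1% at 4000 UMIs without marker cells and 20.5% unthinned. In control it was 0.699% without the 10 richest cells, 1.41% without marker cells, 0.391% at 500 UMIs, 6.04% at 2000 UMIs, 16.0% at 4000 UMIs with or without marker cells, 17.3% unthinned and 1.37% with another draw. More UMIs per cell raise this share by construction, and the cause of the other shifts was not tested. Depth limits Fos, Egr1 and Dusp1 most, each with under 50 UMIs in all.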
